A study of Drosophila melanogaster with 3 samples.

Results

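MicroRNA genes were taken from the fly annotation by symbol (mir- names, with let-7 and bantam) and by gene type, and the peaks of the chromatin protein Pif1A were placed around them. The annotation holds 262 microRNA (miRNA) genes among 17533 genes. Of these, 260 lie on the 6 chromosome arms that carry peaks, and mir-10404-1 and mir-10404-2 lie on the rDNA scaffold, where the lists have no peak. Neighbouring hairpins on 1 strand, at most 10 kb apart, were joined, which gave 203 clusters, 181 of them a single hairpin. The ChIP-seq was done on whole pupae of Drosophila melanogaster, males and females pooled, of a stable transgenic line that carries Pif1A with GFP at its C terminus. An antibody against GFP pulled down chromatin sonicated to 200 to 800 bp, in 3 biological replicates that form 1 group and share 1 control. Their age within the pupal stage is not given, and no flies lacking the tag are among the samples, so signal independent of the tagged protein cannot be told apart from binding. Since pupae were used whole, a peak cannot be assigned to a cell type.

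Each peak carries the authors' signal value, which ranks peaks within a list and has no shared scale between lists. The optimal list joins the replicates and has 7283 peaks, equal to the 7283 highest of the 30000 in the pooled list. For each replicate the 7283 highest of its 30000 peaks were used, and a replicate was said to hold a peak when its summit lay within 100 bp. One peak interval can hold several summits, which the authors listed one by one and which are counted here one by one. Read depth is not given by peak lists and is unknown. Signal values from 87.7 upward make up the optimal list.

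MicroRNAs are short RNAs that lower the output of the messenger RNAs they pair with. In flies a long primary transcript is cut in the nucleus by Drosha with its partner Pasha, the hairpin is cut again in the cytoplasm by Dicer-1 with Loquacious, and the mature strand guides AGO1 with the scaffold protein GW182. A hairpin thus has no start site of its own in most cases: it is carried in an intron or an exon of a longer transcript whose promoter can be far upstream, and several hairpins often share 1 transcript. At metamorphosis several miRNAs act in the timing of tissue remodelling, the let-7 complex among them.

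Some of the miRNAs described below, not all of those with the highest or closest peaks, are given here with their seeds. The seed is bases 2 to 8 of the mature strand, which set most of the pairing with targets. The mature strands below are from RefSeq's annotation of the Release 6 genome, printed 5′ to 3′ with the seed in capitals. All 260 hairpins on the arms have the same coordinates in RefSeq and in Ensembl release 115. The pair mir-279 and mir-996 share a seed, and so do mir-276a and mir-276b, mir-92a and mir-92b, and the mir-2 hairpins in the gene spi, of which mir-2a-1 and mir-2a-2 give the same strand. Bantam, let-7, mir-9a, mir-275, mir-305, mir-282, mir-33 and mir-317 each have another seed.
mir-279: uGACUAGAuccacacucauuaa
mir-996: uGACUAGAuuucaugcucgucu
mir-276a: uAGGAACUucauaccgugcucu
mir-276b: uAGGAACUuaauaccgugcucu
mir-92a: cAUUGCACuugucccggccuau
mir-92b: aAUUGCACuagucccggccugc
mir-2a-1: uAUCACAGccagcuuugaugagc
mir-2b-2: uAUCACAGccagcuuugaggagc
mir-ban (bantam): uGAGAUCAuuuugaaagcugauu
mir-let7 (let-7): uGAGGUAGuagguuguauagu
mir-9a: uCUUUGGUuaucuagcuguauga
mir-275: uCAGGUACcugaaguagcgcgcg
mir-305: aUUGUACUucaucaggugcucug
mir-282: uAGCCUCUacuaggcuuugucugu
mir-33: gUGCAUUGuagucgcauuguc
mir-317: uGAACACAgcuggugguauccagu

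The DNA under 4 summits near miRNA genes shows what the peaks sit on. Each stretch is 101 bases of the Release 6 genome on the plus strand, centred on the summit, with matches to the motifs searched in capitals. Motifs were searched on both strands. The letters TATCGATA are the site of DREF, and CGATA, which is contained in it, is part of the site of BEAF-32. The GAGA factor binds GAGAG. The letters GGTCACACT are motif 1 of core promoters, bound by M1BP. An E-box is CACGTG. Factors of the GATA family bind GATAAG, and nuclear receptors bind AGGTCA. The first, chr3R:29214394-29214494, lies at the transcript start in front of mir-279 and mir-996 and holds no match. The second, chr3L:3246469-3246569, is the highest summit within 5 kb of mir-282 and has none either. The third, chrX:22833677-22833777, lies next to mir-2491 and holds a CGATA. The fourth, chrX:3777336-3777436, overlaps the hairpin of mir-4962 and holds runs of GAGAG read on the other strand (CTCTC).
mir-279 and mir-996: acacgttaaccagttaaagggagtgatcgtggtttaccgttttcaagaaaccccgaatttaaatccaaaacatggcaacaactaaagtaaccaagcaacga
mir-282: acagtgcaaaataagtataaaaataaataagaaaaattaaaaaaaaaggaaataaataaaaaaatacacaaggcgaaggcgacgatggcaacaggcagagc
mir-2491: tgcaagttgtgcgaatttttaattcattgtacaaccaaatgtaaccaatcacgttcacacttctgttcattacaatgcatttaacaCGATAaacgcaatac
mir-4962: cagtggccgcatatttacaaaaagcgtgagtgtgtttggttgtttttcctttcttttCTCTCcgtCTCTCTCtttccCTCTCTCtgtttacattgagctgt

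No searched motif was frequent under the summits near miRNA genes. GAGAG lay under 2 of the 16 summits within 500 bp of a hairpin (12.5%) and under 23 of the 146 within 5 kb (15.8%), beside 13.3% of all optimal summits. CGATA lay under 12.5% and 10.3%, beside 11.0% of all. GATAAG lay under 6.25% and 4.11%, beside 5.04%. TATCGATA, GGTCACACT and CACGTG were each found under 1 of the 146 (0.685%), beside 0.522%, 0.275% and 0.673% of all optimal summits. AGGTCA was found under none of the 146, where 1.88% of all optimal summits held it. These shares are matches of letters only.

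Few hairpins had a Pif1A summit close by. An optimal summit lay within 500 bp of 16 of the 260 miRNA genes (6.15%), in 16 different clusters, which is 7.88% of the 203 clusters. The same distance held a summit for 19.8% of all other genes, which are longer, and for 7.78% of the snoRNA, tRNA and snRNA genes, which are short like hairpins. Of all sequenced bases of the arms, 5.07% lay that close to a summit. A hairpin counted when any of its bases was that close, whereas the latter share is of single bases. Measured from the 5′ end of the hairpin alone, 14 of the 260 miRNA genes had a summit within 500 bp. Thus the share for miRNA genes was near that for any base of the arms. In the replicates 15, 15 and 12 miRNA genes had a summit within 500 bp, or 5.38% ± 0.666 (SD, n = 3), so the background of 5.07% was within the spread between replicates.

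Within 5 kb the count was 89 of 260 genes (34.2%) in 72 clusters (35.5%). All other genes had a summit within 5 kb in 41.4% of cases and the snoRNA, tRNA and snRNA genes in 46.0%, while 29.4% of the sequenced bases lay within that distance. The replicates gave 85, 93 and 94 miRNA genes, or 34.9% ± 1.90 (SD, n = 3). Every replicate was thus above the share of bases and below the shares of the other genes, both taken from the optimal list. The 89 genes share 146 summits, and hairpins of 1 cluster share theirs, so genes are not independent of each other. By arm, 26 of 56 genes on 2L had a summit within 5 kb, 20 of 55 on 2R, 11 of 31 on 3L, 19 of 58 on 3R, 12 of 58 on X and 1 of 2 on chromosome 4. Of the 58 on X, 12 are 1 cluster without a summit. The X also holds 5 of the 16 genes with a summit within 500 bp. No share of all genes or bases by arm stands beside these counts, so arms cannot be compared by them.

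**Figure D1:**
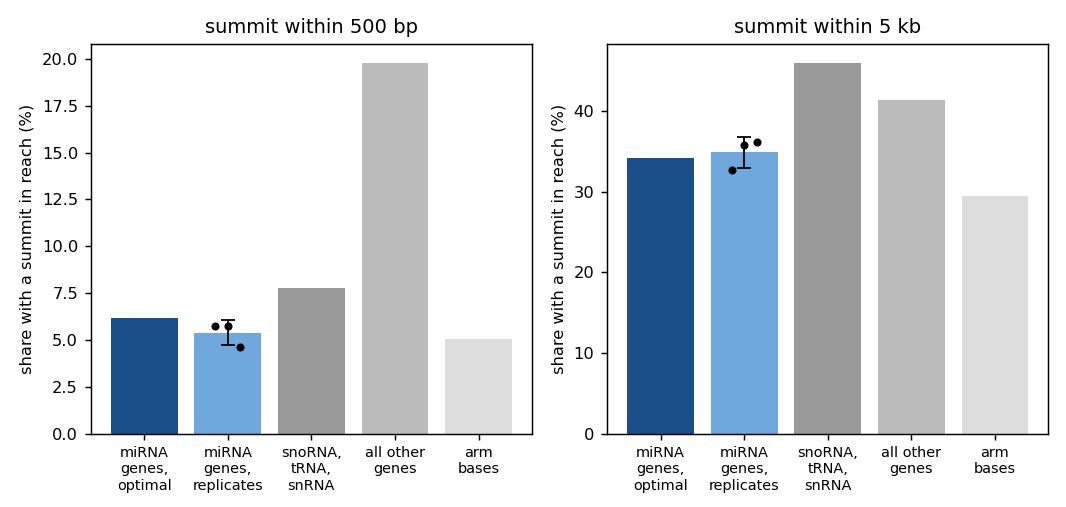
Bars give the share (%) of miRNA genes, of other short noncoding genes, of all other genes and of sequenced bases with an optimal summit within 500 bp (left) or 5 kb (right), and the second bar is the mean over the 3 replicates with its SD and each replicate as a point. At 500 bp miRNA genes (6.15%) stand near the bases of the arms (5.07%), and at 5 kb (34.2%) between the bases (29.4%) and the other genes (41.4%).

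The height of these peaks spanned nearly the whole list. The 16 summits within 500 bp had a median signal value of 147 and reached 334, whereas the 146 within 5 kb had a median of 167 and reached 1735. For all 7283 optimal peaks the median was 153 and the highest value 2980. Signal values of 500 or more were held by 12 of the 146 and by 520 of all 7283. None of those 12 lay within 500 bp of a hairpin. A start of another gene lay within 500 bp of 3 of the 16 summits (18.8%) and 53 of the 146 (36.3%), beside 31.0% of all optimal peaks.

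**Figure D2:**
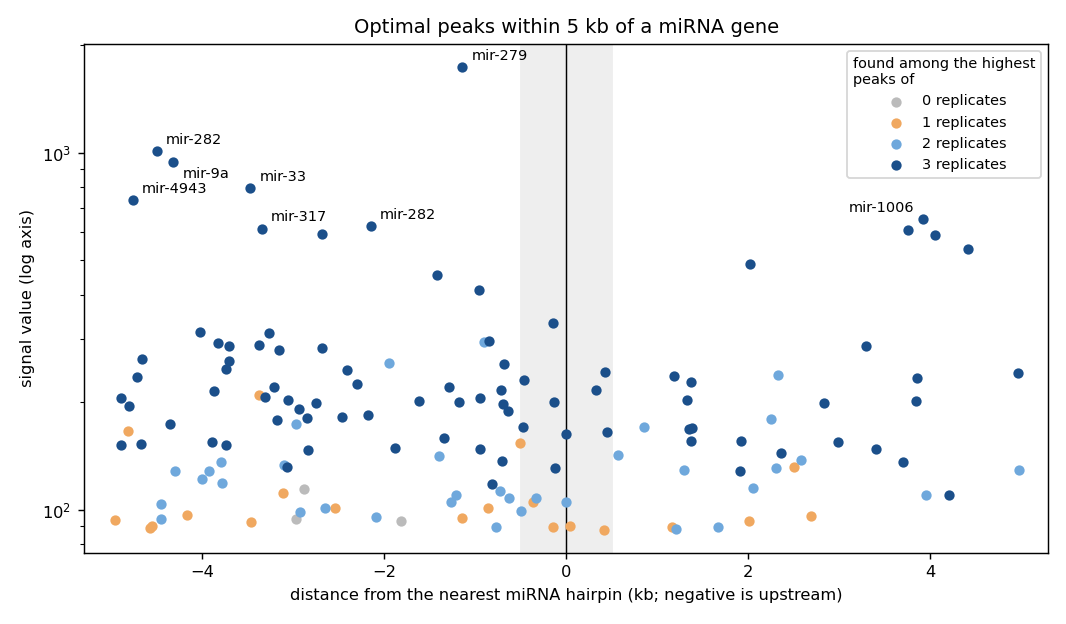
Each point is 1 of the 146 optimal summits within 5 kb of a miRNA gene, with its distance from the nearest hairpin in kb (negative is upstream) against its signal value on a log axis, coloured by the number of replicates that hold it, and the shaded band is 500 bp to each side. The highest, at 1735, lies upstream of mir-279, and no summit in the band exceeds 334.

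The highest peak near any miRNA gene stood at the start of the transcript of mir-279 and mir-996. This pair blocks the formation of carbon dioxide sensing neurons where they do not belong, and both hairpins lie in exons of lncRNA:CR31044. The peak, chr3R:29214179-29214615, had a signal value of 1735 and rank 15 of 7283 in the optimal list. Its rank was 16, 19 and 16 in replicates 1, 2 and 3, with signal values of 528, 628 and 579. It was thus among the highest peaks of every list. The summit lay 118 bp from the annotated start of lncRNA:CR31044 and 1141 bp upstream of the mir-279 hairpin (chr3R:29215585-29215684). Between that start and the hairpin there was a low summit, 337 bp upstream of mir-279, with a signal value of 108 and rank 5708, which ranked 4856 and 5045 in replicates 1 and 2 and was not listed in replicate 3. A pair of summits farther upstream, with signal values of 264 and 104, completed the locus.

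The gene with the most summits was mir-282, whose hairpin (chr3L:3251022-3251118) lies in an exon of lncRNA:CR43626. It had 8 optimal summits within 5 kb, of which 7 were upstream and 1 downstream. The highest, chr3L:3246263-3246772, had a signal value of 1008 and rank 88, and lay 4503 bp upstream and 1496 bp from the nearest start, that of CG43389. It ranked 37, 330 and 49 in the replicates, with signal values of 394, 218 and 414, so replicate 2 placed it lowest. The next, with a signal value of 623 and rank 306 (376, 326 and 256 in the replicates), lay 469 bp from a start of lncRNA:CR43626. The other 6 ranged from 128 to 312.

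Upstream of mir-9a, which limits the number of sensory organ precursors, 3 summits lay between 3108 and 4320 bp from the hairpin, all before the start of its carrier lncRNA:CR45916. The highest, chr3L:19560662-19561043, had a signal value of 940 and rank 111, and lay 4320 bp upstream and 379 bp from the start of lncRNA:CR44676. It ranked 93, 159 and 124 in the replicates, with signal values of 305, 296 and 314. The others had signal values of 207 and 133.

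Bantam, which promotes growth and blocks cell death, had 3 summits around its hairpin (chr3L:642208-642288), an exon of lncRNA:CR43334. The highest, with a signal value of 487 and rank 556 (768, 481 and 604 in the replicates), lay 2016 bp downstream. The second, at 454 and rank 649 (864, 475 and 778), lay 1422 bp upstream. The third, 413 bp downstream, had a signal value of 87.9 and rank 7255, next to the end of the list. Both high summits were held by every replicate, while the low one was among the 7283 highest peaks of replicate 1 only. None was within 500 bp of any of the 3 annotated starts of lncRNA:CR43334, the nearest being 1072 bp away. Each replicate, however, had a summit within 500 bp of one of those starts among its 7283 highest peaks.

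In mir-276a and mir-276b, which share a seed and of which mir-276a acts in olfactory memory, the summits had signal values between 200 and 247. At mir-276a the closest summit was 131 bp upstream with a signal value of 200 and rank 2514, and it ranked 2880, 3090 and 2947 in the replicates. A second, with a signal value of 220 and rank 2205, lay 76 bp from a start of lncRNA:CR46006, the transcript that carries the hairpin. At mir-276b the summits had signal values of 247 and 235 and lay 3740 and 4723 bp upstream. Every replicate held all 4.

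The hairpins mir-275 and mir-305, of which mir-305 acts in the stem cells of the gut, lie side by side. The annotation places mir-275 in an exon of lncRNA:CR43857 and mir-305 just outside it, between genes. Their 4 summits were all upstream, at 463, 1340, 2304 and 2942 bp from mir-275, with signal values of 230, 159, 225 and 191. The closest ranked 2035 in the optimal list and 3269, 1666 and 2689 in the replicates. The summit at 2304 bp lay 329 bp from the start of lncRNA:CR43857. Each of the 4 was held by all 3 replicates, with none above rank 2000 in the optimal list.

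**Figure D3:**
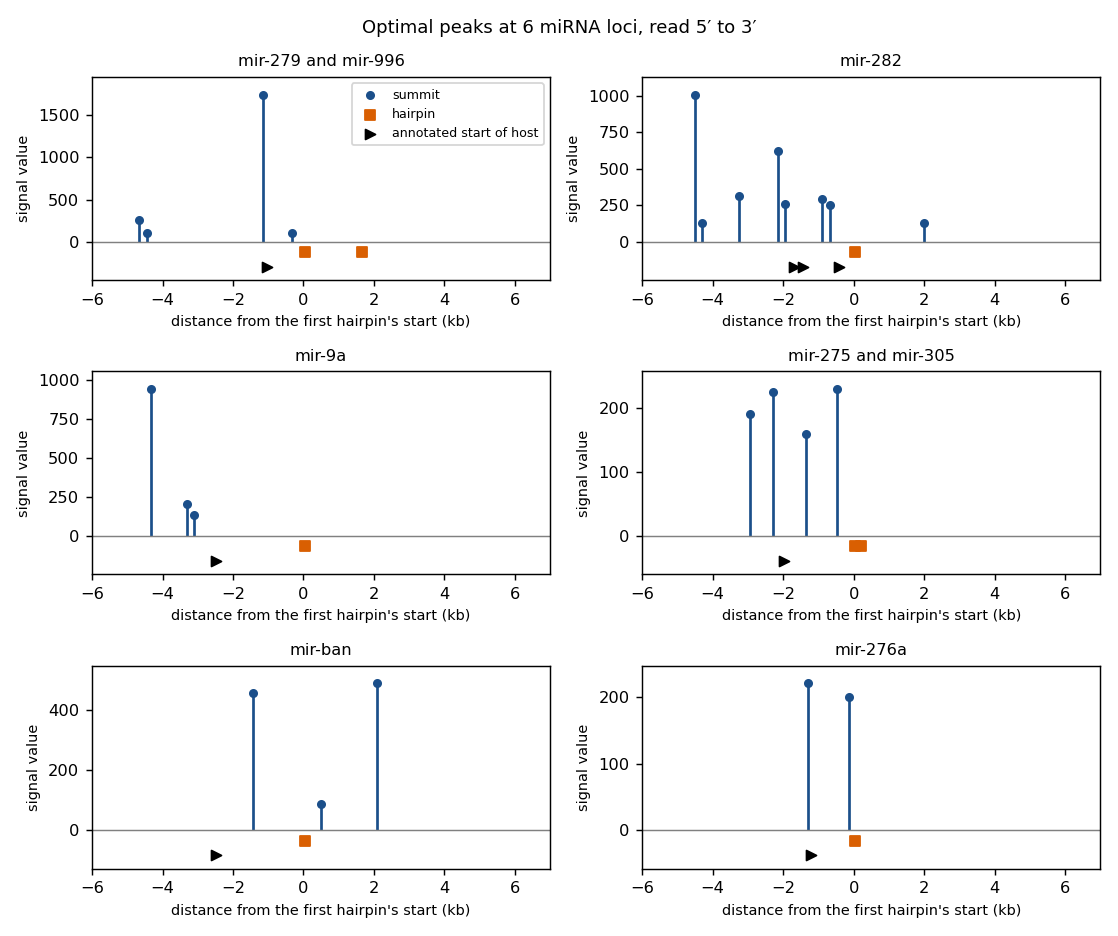
Each panel shows 1 locus read 5′ to 3′, with the distance from the first hairpin's start in kb against the signal value of each optimal summit (stems), hairpins as squares and annotated starts of the transcript carrying the first hairpin, where in range, as triangles. At 5 of the 6 loci the highest summit is upstream of the hairpin, up to 1735 at mir-279 and mir-996, and at mir-ban it is downstream (487).

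The other well-studied miRNA genes had no peak with a signal value above 297. At mir-8, which acts in growth of the body, a summit with a signal value of 297 and rank 1373 lay 104 bp from the start of lncRNA:CR43650 and 847 bp upstream of the hairpin. It ranked 1157, 1506 and 3957 in the replicates, so replicate 3 placed it lowest. At mir-14, which acts in fat metabolism and steroid signalling, the summit 145 bp upstream had a signal value of 89.5 and rank 7106. It ranked 21678 and 5407 in replicates 1 and 3 and was not listed in replicate 2, although each replicate held some summit within 500 bp of the hairpin. A higher one, with a signal value of 205, lay 29 bp from the start of lncRNA:CR43651, which carries mir-14, and ranked 2416 (1988, 4296 and 2022). The highest within 5 kb of mir-14, at 234 and rank 1980 (5821, 1208 and 2673), lay 3859 bp downstream. At mir-7, which acts in photoreceptor formation and lies in an intron of HnRNP-K, the 1 summit was 4807 bp upstream with a signal value of 195.

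The let-7 complex, in which mir-100, let-7 and mir-125 are cut from lncRNA:let7C and which switches on with the steroid pulses of metamorphosis, had low peaks. Its summits were 3788 and 2655 bp upstream of mir-100, with signal values of 119 and 101. The first ranked 5020 in the optimal list and 5843, 9109 and 3904 in the replicates, so it fell outside the 7283 highest of replicate 2. The second ranked 6193, and 5140, 8218 and 7136 in the replicates, again outside in replicate 2. Neither was near the start of lncRNA:let7C, which had no optimal summit within 500 bp. There was no optimal summit within 5 kb of mir-1 of muscle, mir-34 of ageing, mir-184 of the female germline, mir-278 of insulin signalling, or the sense and antisense hairpins mir-iab-4 and mir-iab-8 of the bithorax complex. For mir-278 1 replicate had a summit within 5 kb among its 7283 highest peaks, and for the other 5 genes no replicate had one.

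Among the hairpins carried in coding genes, the highest peaks more than 500 bp away stood near a start of the carrier in some genes and not in others. At mir-33, in an intron of SREBP, the regulator of lipid synthesis, a summit with a signal value of 797 and rank 166 (150, 282 and 142 in the replicates) lay 3473 bp upstream and 553 bp from a start of SREBP. That is just beyond 500 bp, so SREBP had no optimal summit within 500 bp of a start. At mir-4943, in CG5953, a summit with a signal value of 735 and rank 204 (267, 178 and 195) lay 375 bp from a start of that gene. The hairpins mir-2a-1, mir-2a-2 and mir-2b-2, whose family represses the cell death genes reaper, hid and grim, lie in an intron of spi, a ligand of the EGF receptor. Their shared summit had a signal value of 593 and rank 345 (469, 335 and 370), 342 bp from a start of spi. These 3 peaks were thus high in every replicate.

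In 3 further genes the high peak was not near a start of a carrier. The peak at mir-1006, in VhaSFD, had a signal value of 650 and rank 272 (188, 389 and 318), lay downstream, and had Cyt-c-p, the gene of cytochrome c, as its nearest start at 937 bp. The peak at mir-1004, in CG43707, had a signal value of 608 and rank 329 (474, 350 and 262) and lay downstream, 261 bp from a start of bowl, a transcription factor of leg and gut. Between genes, mir-317 had 1 summit 3347 bp upstream with a signal value of 612 and rank 325 (430, 371 and 298), and no start of any gene was nearer to it than 4398 bp. All 3 peaks were held by all 3 replicates.

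Of the 16 genes with a summit within 500 bp, mir-279, mir-275, mir-276a, mir-14 and bantam lie in exons of long noncoding RNAs. Introns of coding genes carry 8 others, namely mir-2281 in cv-c, mir-2491 in fog, mir-4962 in Tlk, mir-4968 in Mob2, mir-4974 in CG8671, mir-92a in jigr1, mir-9377 in Tis11 and mir-9378 in CG17124. The highest of the 16 was at mir-2491, 144 bp upstream, with a signal value of 334 and rank 1153, and 1561, 1055 and 1260 in the replicates. The next, at mir-92a, which acts in neural stem cells, had a signal value of 243 and rank 1859 (2574, 1279 and 2937). It lay 430 bp downstream and 216 bp from a start of jigr1. Both were held in every replicate. The summits of mir-4962 and mir-4974 lay inside the hairpin, with signal values of 163 and 105. Exons of coding genes carry mir-9370 in Amun (signal value 131) and mir-9374 in the nuclear receptor gene Hr39 (105), and mir-2496 (170) lies between genes.

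In the replicates, 9 of the 16 genes had a summit within 500 bp among the highest peaks of all 3, 3 genes in 2 of them and 4 genes in 1. Requiring a summit within 100 bp of the optimal one gave the same counts, with mir-2496 in place of mir-14 among the 9. By the first count, the 4 genes with a summit in 1 replicate were bantam, mir-2281, mir-9374 and mir-9378. By the second, mir-14 took the place of mir-9378, whose summit was held by 2 replicates. All of these had signal values of 105 or less. Of the 89 genes with a summit within 5 kb, 69 had one in all 3 replicates, 13 in 2 and 7 in 1. Peak by peak, 88 of the 146 summits were held by all 3 replicates, 35 by 2, 20 by 1 and 3 by none. Over the whole optimal list the counts were 4087, 2029, 1019 and 148 of 7283.

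**Figure D4:**
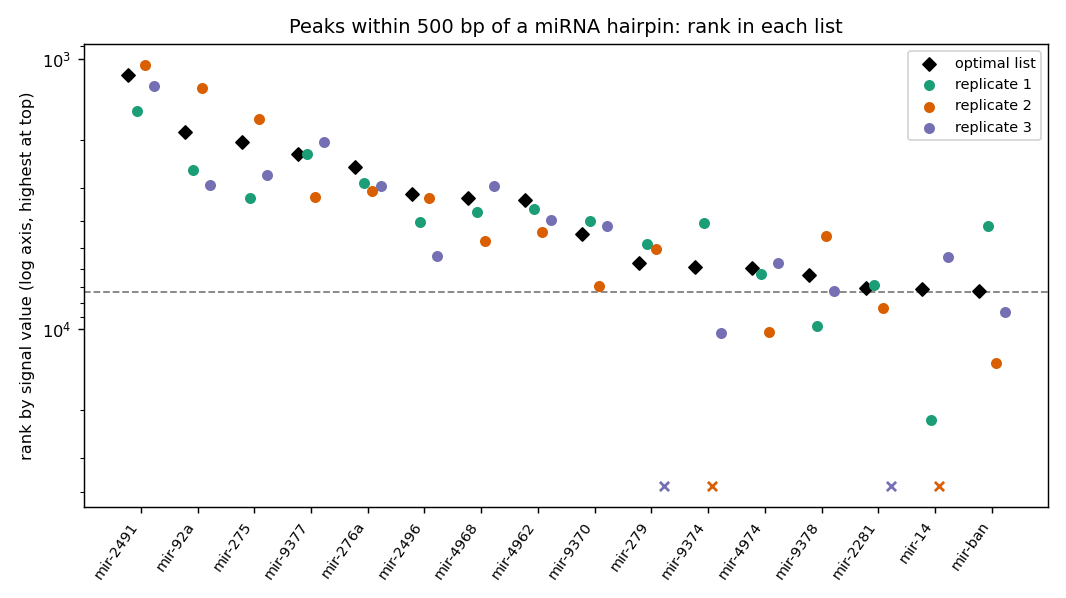
For each of the 16 miRNA genes with an optimal summit within 500 bp, the rank of that peak by signal value in the optimal list (diamonds) and of the matching summit in each replicate (circles) is given on a log axis with the highest peaks at the top, crosses mark a replicate whose list has no match, and the dashed line is rank 7283. On the log axis, among peaks matched in all 3 replicates, ranks lie closest together at mir-276a (2514 to 3090). Over all 16 genes they lie farthest apart at mir-14 (5407 to 21678, with 1 replicate unmatched).

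By location, in the optimal list, hairpins in exons of noncoding transcripts most often had a summit and hairpins between genes least often. An optimal summit lay within 500 bp of 5 of the 49 hairpins in noncoding exons (10.2%) and within 5 kb of 21 (42.9%). For the 39 in coding genes' exons the counts were 2 (5.13%) and 11 (28.2%). Bases in exons of any gene were within 500 bp of a summit in 3.23% of cases and within 5 kb in 29.3%. In introns 8 of 123 hairpins (6.50%) had a summit within 500 bp and 44 (35.8%) within 5 kb, beside 6.73% and 35.0% of all intron bases, so the shares for intronic hairpins were close to those of intron bases. Between genes it was 1 of 49 (2.04%) and 13 of 49 (26.5%), beside 4.37% and 21.7% of the bases there. Of those 13 genes 7 are the cluster from mir-310 to mir-992, which share 3 summits, and 10 of the 49 belong to 1 cluster on X without a summit.

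The replicates did not keep this order of the exonic classes apart. Within 5 kb they gave 38.1% ± 5.89 for noncoding exons, 36.8% ± 3.92 for coding exons, 35.8% ± 2.15 for introns and 27.9% ± 2.36 between genes (SD, n = 3 each). The first 3 classes thus overlapped within their spread, while the hairpins between genes lay below them by more than 1 SD. Without the clusters of 4 or more hairpins, an alternative chosen after seeing the data, the optimal list gave 21 of 41 for noncoding exons (51.2%), 44 of 110 for introns (40.0%), 11 of 37 for coding exons (29.7%) and 6 of 30 between genes. The replicates then gave 45.5% ± 7.04, 39.7% ± 1.89, 38.7% ± 4.13 and 22.2% ± 3.85 in the same order (SD, n = 3 each). The class between genes thus moved from above to below the 21.7% of its bases in the optimal list, and it was the lowest class with and without those clusters. Of the 16 genes with a summit within 500 bp, 8 were in introns (exact Clopper-Pearson 95% interval of the share 24.7 to 75.3%, counting error only). Of all 260 miRNA genes on the arms 123 are in introns, a share inside that interval, so the 8 do not set these 16 genes apart.

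Summits lay more often before miRNA clusters than after them. Within 5 kb, 100 optimal summits were upstream of the first hairpin, 42 downstream of the last and 4 between hairpins. The upstream share of the first 2 counts was 70.4% (exact Clopper-Pearson 95% interval 62.2 to 77.8%, which covers counting error only and takes neighbouring summits as independent, which they are not). In the replicates the upstream and downstream counts were 101 and 48, 103 and 42, and 103 and 45. Their share was 69.5% ± 1.63 (SD, n = 3), above 50% in each replicate. Some upstream summit was present at 59 clusters and some downstream summit at 28.

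The surplus upstream was of the same size near and away from annotated starts. Among summits within 500 bp of a start of another gene 36 were upstream and 15 downstream (70.6%), and among the rest 64 and 27 (70.3%). By the location of the first hairpin the counts were 36 and 7 for noncoding exons (83.7%), 12 and 5 for coding exons (70.6%), 46 and 24 for introns (65.7%), and 6 and 6 between genes. These counts weigh a locus by its number of summits, and mir-282 alone gives 7 of the 36. Counted by cluster, some upstream and some downstream summit was present at 14 and 5 clusters for noncoding exons, 9 and 3 for coding exons, 31 and 17 for introns, and 5 and 3 between genes. More clusters thus had an upstream than a downstream summit in each class, and the classes cannot be ranked by these counts. Other genes measured in the same way differed among themselves, with 50.7% upstream for tRNA genes, 56.0% for protein-coding genes and 78.2% for snoRNA genes, many of which lie in introns. An upstream surplus was therefore also found at genes that are not miRNA genes.

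**Figure D5:**
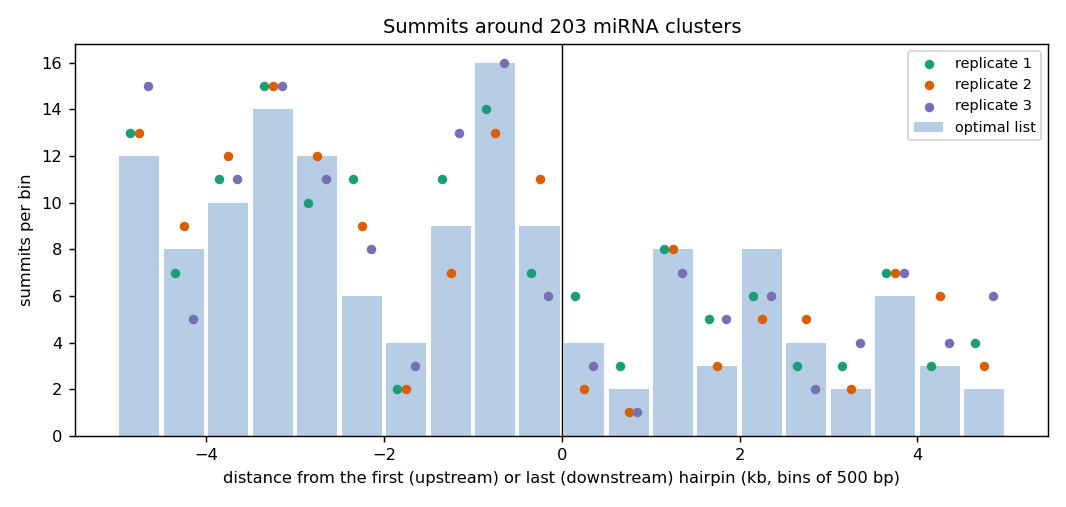
Summits per 500-bp bin are plotted against the distance in kb from the first hairpin (upstream, negative) or the last hairpin (downstream) of the 203 miRNA clusters, with bars for the optimal list and points for each replicate. Upstream bins hold 100 optimal summits in all and downstream bins 42.

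Since a primary miRNA can start where its carrier starts, the starts of carriers on the same strand were examined at any distance. Which start each miRNA uses was not tested. Coding carriers number 129. A start with a summit within 500 bp was found in 35 of them (27.1%), beside 14.1% of all protein-coding genes. Noncoding carriers number 38, and 8 (21.1%) had one, beside 10.9% of all ncRNA genes. The carriers are longer, with a median length of 14032 bp beside 2166 bp for all coding genes and 6087 bp beside 706 bp for ncRNA genes. Coding carriers also have more annotated starts, a median of 2.00 beside 1.00, and the part of length and number of starts in these shares was not tested. Of the 137 miRNA genes in coding carriers 37 had a summit at a start upstream of the hairpin, and of the 52 in noncoding carriers 10 had one.

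Several of those starts were far from the hairpin. A start of Btk, a tyrosine kinase, which carries mir-2b-1, had a signal value of 1060 and rank 76 (71, 213 and 34 in the replicates), 19162 bp upstream of that hairpin. The highest summit at a start of bun, a growth regulator with 7 annotated starts that carries mir-967, had a signal value of 633 and rank 298 (361, 249 and 363), 23869 bp upstream of that hairpin. A lower one, with a signal value of 200 and rank 2516 (1614, 3386 and 3543), lay 24 bp from another start of bun and 1180 bp upstream of mir-967. A start of spi had a signal value of 631 and rank 301 (271, 256 and 513), 5843 bp upstream of mir-2a-1. The peaks with signal values of 1060, 633 and 631 ranked in the upper part of every list and lie beyond 5 kb from those hairpins. At another start of lncRNA:CR46006, which carries mir-276a, the summit (409, rank 812) was higher than the one next to the hairpin. It lay 33227 bp upstream of the hairpin and 460 bp from that start.

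Hairpins near and away from some other gene's start had similar shares, but with so few summits a difference cannot be told. A summit lay within 500 bp of 3 of the 54 hairpins (5.56%) that have such a start within 500 bp, and of 13 of the other 206 (6.31%).

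Most of the few large clusters had no optimal peak within 5 kb. Of the 6 clusters with 4 or more hairpins, which hold 42 genes, 1 had an optimal summit within 5 kb. That was the cluster from mir-310 to mir-992 with 7 hairpins on 2R, with 3 summits of signal values 236, 199 and 199, none nearer than 1187 bp, and each replicate had 3 there as well. No optimal summit lay within 5 kb of the 12 hairpins from mir-972 to mir-979 on X, the 8 of the mir-309 to mir-6 cluster, which clears maternal messenger RNA in the early embryo, the 6 from mir-959 to mir-964, the 5 from mir-982 to mir-984, or the 4 of mir-9c, mir-306, mir-79 and mir-9b. For the last of these, replicate 2 had 1 summit within 5 kb among its highest peaks. By comparison, 62 of the 181 single hairpins and 9 of the 16 clusters of 2 or 3 hairpins had an optimal summit within 5 kb. Over all 203 clusters it was 72 (35.5%). With only 6 large clusters, a difference from that share cannot be told.

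The genes that make and use miRNAs, with some of RNA interference such as AGO2, r2d2 and Dcr-2, were looked up in the same lists. A summit of the optimal list stood within 500 bp of a start in 4 of 19 such genes (21.1%), beside the 14.1% of protein-coding genes given above. Of the 4, AGO2 and r2d2 are genes of RNA interference, so the share is not that of miRNA genes' own pathway alone. The peak at AGO2, the Argonaute of RNA interference, had a signal value of 407 and rank 824 (493, 1116 and 1175 in the replicates). The peak at r2d2, the partner of Dicer-2, had a signal value of 386 and rank 890 (924, 800 and 1275), and a start of Herp lies within 500 bp of it as well. At gw, which encodes GW182, the values were 311 and rank 1282 (1071, 1387 and 1336). At AGO1 they were lower, 109 and rank 5633 (6884, 18458 and 3639), with the matching summit of replicate 2 far down its list, although each replicate had some summit within 500 bp of a start of AGO1 among its highest peaks. There was no optimal summit at the starts of drosha, pasha, Dcr-1, loqs, Ranbp21, Ars2, Dcr-2, Hen1, Nbr, Tailor, Dis3l2, me31B, Not1, twin or Pop2. Of these, Ars2 had a summit at a start among the highest peaks of 2 replicates, and Nbr, twin and Pop2 in 1 replicate each. With so few genes, 1 gene moves the share by several percentage points.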

How the data were processed

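The authors made the peak lists of the replicates and of the pooled reads from alignments and 1 common control, per the file headers and descriptions they deposited, as input to the irreproducible discovery rate (IDR) procedure. That procedure gave the optimal list. The aligner, caller and IDR threshold were not given in the sources used here. Peaks were ranked within a list by the signal value the authors deposited. The deposited −log10 q-value was not used for ranking. The 5 lists on the older build dm3 were not used. Positions are 1-based on dm6 (Release 6), which is the build of the lists.

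Genes came from Ensembl release 115, without transposable elements and pseudogenes. A summit is the start of the peak plus the deposited offset, and its distance was taken to the annotated hairpin (50 to 174 bp long, median 92), 0 inside it. Hairpins were placed in a coding exon, a noncoding exon, an intron or between genes, with carriers on either strand, of which those on the same strand entered the analysis of carriers' starts. Replicates are biological per the labels, and means ± SD are over n = 3. Their spread includes the shared control, and the optimal list was built from the replicates it is compared with. No test was run: there is 1 group, and counts stand beside those of other genes and bases. The steps returned the planted windows, sides and clusters on simulated data.

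Genes named were those with an optimal summit within 500 bp and those with the highest peaks from 501 to 5000 bp away. The last 3 of the latter share a peak, so 11 are named for 10 places. Also named were a list of well-studied miRNAs, clusters of 4 or more hairpins, and carriers and nearest starts. Bound genes of the 19 of miRNA making, miRNA action and RNA interference were named too. Btk and bun fall outside this rule, being chosen after their values had been seen. The members and lists were chosen with earlier results of these data known. Alternatives changed the window, the list, the number of peaks, the match distance, the cluster rule, the point of the hairpin measured and the replicates. Python 3.11.15 with numpy 2.4.6, scipy 1.17.1 and matplotlib 3.10.9 was used.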

Additional observations from a re-analysis of the deposited data

How the results depend on the processing

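Of 67 alternative settings, 41 stayed within 1.5 times the reported count or, for shares, within the stated interval or spread. The share of hairpins with a close summit depends on the window and the list. The 16 miRNA genes with an optimal summit within 500 bp became 7 within 200 bp, 30 within 1000 bp, 8 with the upper part of the optimal list by signal value, and 44 with the whole pooled list, which runs down to background. The 16 clusters became 7, 28, 8 and 44 in the same order. Keeping peaks held by both other replicates gave 10 genes and 10 clusters, whichever replicate was left out. The 89 genes with a summit within 5 kb became 49 within 2 kb and 149 with the whole pooled list, and the 72 clusters became 39, 124 and, within 10 kb, 109. The mean over replicates of 14.0 genes within 500 bp became 48.3 with whole lists and 6.33 with fewer peaks (the upper part of the 7283), and that of 90.7 within 5 kb became 159 with whole lists. The share of summits upstream, an analysis and alternatives added after seeing the data, was 60.0% with the whole pooled list against 70.4%. The cause was not tested. The 9 genes with a summit matched within 100 bp in all 3 replicates (mir-2496 among them, not mir-14) stayed within the limit under every alternative run. So did the share in introns, at 49.4 to 62.5%. Its limit was the wide interval of 24.7 to 75.3%, so this says little. No paired analysis was possible because the samples form 1 group. Peak lists give no depth, so a hairpin without an optimal summit is one where no peak was listed, not one shown to be free of Pif1A.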
